A study of Mus musculus with 8 samples.

Results

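The comparison described here asks whether loss of Lox changed RNA levels differently in the ascending and in the descending aorta of newborn mice. It is the genotype by segment interaction, that is, the difference between knockout (KO) and wild type (WT) in the ascending segment minus the same difference in the descending segment. A value above 0 means that KO stood higher, relative to WT, in the ascending than in the descending aorta, and a value below 0 means the reverse. All 8 arrays of the study enter it, 2 in each of 4 groups: WT ascending, KO ascending, WT descending and KO descending. Each array measured total RNA from 1 pool of 8 newborn (p0) pups of one genotype on an albino C57BL/6J background, so n = 2 pools for every group mean given and p-values measure the spread between such pools. Per the labels, the ascending segment ran from the aortic valve up to the ductus arteriosus and the descending segment from the vena cava down to the diaphragm. The knockout was of the Lox gene itself, with no cell-specific driver named in the labels, and no treatment was given to any group. Both genotypes were present in both segments, and pools of a segment shared no array with pools of the other. Of 22184 genes with a probe set of their own, 16638 were bright enough to be tested.

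Lysyl oxidase, the protein made from Lox, is a secreted copper enzyme that oxidises lysine side chains in elastin and collagen so that the chains can be crosslinked. Without it the elastic layers of the great arteries are weak, and mice that lack it die around birth with aneurysms and ruptured vessels. The ascending aorta lies close to the heart, takes the full pulse of each beat and draws part of its smooth muscle from the neural crest, while the smooth muscle of the descending aorta comes from the somites. Thymus, heart, airway, lung, oesophagus, brown fat, sympathetic ganglia and the liver under the diaphragm all lie near a dissected newborn aorta, and blood remains in its lumen.

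Lox itself was lower in KO pools by nearly the same amount in both segments. On the log2 scale it stood at 11.47 and 11.60 on the WT ascending arrays, 8.87 and 8.74 on KO ascending, 11.41 and 11.24 on WT descending, and 8.56 and 8.51 on KO descending. No KO array overlapped a WT array, and the interaction was 0.06 (SE 0.16, 95% interval -0.30 to 0.42). The KO arrays still read well above 4.11, the limit under which genes were counted as dim and not tested, and the labels do not say which stretch of the gene was removed. The other family members with probe sets of their own had interactions of -0.30 for Loxl1, -0.12 for Loxl3 and -0.25 for Loxl4, each below 0 and none past the test (adjusted p 0.913 to 0.964). These are related enzymes that could act on the same lysines. None of them passed between KO and WT in either segment at an adjusted p under 0.05. Loxl3 came nearest, 0.47 higher in KO in descending (adjusted p = 0.0505) and 0.35 in ascending (adjusted p = 0.1). In each segment its KO arrays lay above its WT arrays. Loxl2 had no probe set of its own and was not tested.

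Arrays of a group correlated at 0.988 to 0.992 across genes, which are not independent replicates, and their medians lay between 5.11 and 5.19 log2. Contractile genes of smooth muscle averaged 9.61 to 9.78 on all 8 arrays, with no dim member. Hox genes, whose order along the body axis marks position, averaged 5.04 to 5.18 on ascending and 5.88 to 5.97 on descending arrays, with no overlap. On single arrays, markers of other tissues stood apart. These were thymus and lymphocyte genes on WT ascending replicate 1 and skeletal muscle genes on KO descending replicate 1. Liver genes stood highest on KO descending replicate 2. List values that rest on those arrays, and the liver genes named, are given with and without them. The liver list mean was also raised on KO descending replicate 1, at 6.17 against 7.25 on replicate 2 and 5.16 to 5.95 on WT and ascending arrays. Lung genes were raised on both WT descending arrays, at list means of 6.45 and 6.67 against 5.36 to 6.09 on the others. Calls within a segment depended on single arrays: without WT ascending replicate 2 the ascending calls numbered 64 in place of 455, and without WT descending replicate 1 the descending calls numbered 19 in place of 380.

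No gene passed the interaction test. At an adjusted p under 0.05, 0 of 16638 genes (0%) were called by limma, and the smallest adjusted p was 0.439. At an unadjusted p under 0.05 there were 932 genes, or 5.6%, where a uniform spread of p-values gives 5%. Of these, 564 genes (3.39%) lay above 0 and 368 (2.21%) below 0, while over all genes, whatever their p, the estimate lay above 0 in 8406, or 50.5%. An estimate of at least 2-fold was seen in 87 genes, 52 of them above 0 and 35 below. With 1 array left out the count of genes called ranged from 0 to 11: it was 11 without KO descending replicate 1, 2 without WT descending replicate 1 (Sftpc and Cxcl15, both lung genes) and 1 without WT descending replicate 2 (Sftpc). Leaving out 1 array leaves its group with a single array, which is then assumed to vary like the other groups, so these passes are no support for the genes named. The count was 1 with a trended robust prior, which called Abi3bp at an adjusted p of 0.0499.

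The count of 0 does not show that Lox loss acted alike in the segments. The interaction is a difference of differences, and its median SE of 0.18 log2 was larger than the 0.127 of the difference within a segment. The 95% interval of a gene reached 0.41 log2 to each side at the median, a 1.33-fold difference, and 0.319 to 0.717 from the 5th to the 95th percentile. It lay wholly within 2-fold either way for 15422 genes (92.7%) and within 1.5-fold for 8880 (53.4%). For the remaining genes it reached past those limits on at least 1 side.

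**Figure D1:**
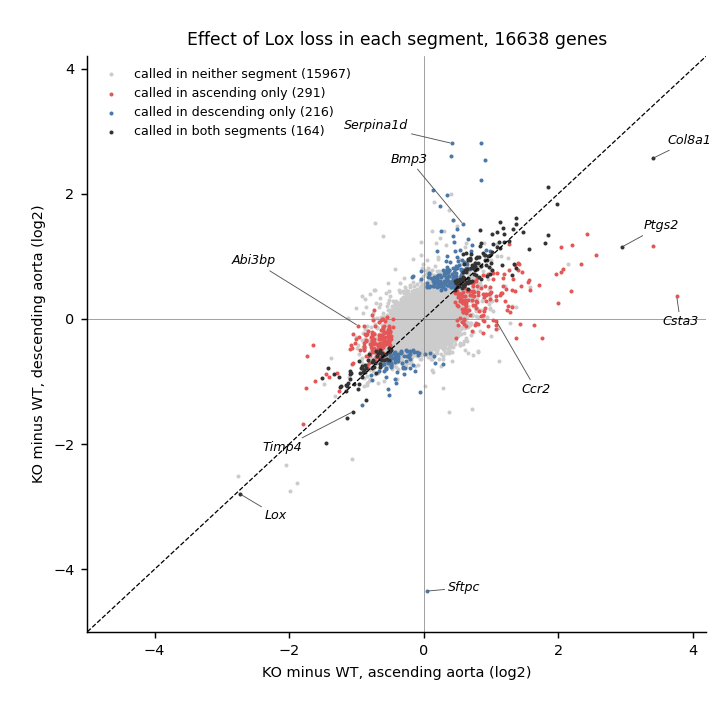
Each point is 1 of 16638 genes, placed by its KO minus WT difference in the ascending aorta (horizontal axis, log2) and in the descending aorta (vertical axis, log2), each from 2 arrays per group. Points on the dashed line have an interaction of 0. The 164 genes called in both segments all lie at the lower left or upper right, with differences of 1 sign, and Lox lies close to the line.

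Genes called in both segments had the same direction in both. In the ascending aorta 257 genes (1.54%) were higher and 198 (1.19%) lower in KO, and in the descending aorta 243 (1.46%) were higher and 137 (0.823%) lower. The lists shared 164 genes, 36% of the ascending and 43.2% of the descending calls. Of the 164, 103 were higher and 61 lower in both, and 0 went opposite ways. The change was the larger one in ascending for 78 and in descending for 86, a nearly even split. The interval of the interaction lay within 2-fold for 157 of the 164 and within 1.5-fold for 99, against 92.7% and 53.4% of all genes. Passing in both segments favours changes of like sign and size, so these counts are given as a description. Across all genes tested the differences in the segments, which share no array, had a Pearson r of 0.597 and a Spearman rho of 0.526, as a description across genes.

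Among the 10 genes with the firmest calls in both segments, besides Lox, most had an interaction near 0. P4ha1, a prolyl hydroxylase that stabilises the collagen helix, stood at 7.53 and 7.49 on WT ascending arrays, 8.54 and 8.51 on KO ascending, 7.70 and 7.76 on WT descending, and 8.89 and 8.71 on KO descending. It rose 2.02-fold and 2.09-fold, with an interaction of -0.05 (SE 0.15, interval -0.39 to 0.29). Itga11, the alpha chain of a fibroblast receptor for collagen, went from 5.75 and 5.55 to 6.90 and 7.14 in the ascending aorta, and from 6.48 and 6.60 to 8.15 and 7.97 in the descending. Its interaction was -0.15 (SE 0.19). Adamts8, a secreted metalloprotease, rose 2.27-fold and 2.74-fold, with an interaction of -0.27 (SE 0.13, interval -0.57 to 0.04). In all 3 genes no KO array overlapped a WT array of the same segment, which their choice by smallest adjusted p made likely. Alg3, which adds a mannose to the glycans placed on proteins, and Tmem97, a sterol-regulated membrane protein, had interactions of -0.01 and -0.03. Among genes that fell, Cdr1 and Clca3a2 had interactions of 0.07 and -0.15. Of 96 calls of named genes within a segment, 29 were kept under all 18 alternatives, and they include both calls of Lox, Adamts8, Itga11, Clca3a2 and Col8a1 and the ascending calls of P4ha1, Alg3, Tmem97, Cdr1 and Col11a1. The other 67 were lost with at least 1 array left out, and between 22 (KO descending replicate 1) and 40 (WT ascending replicate 2) were lost per array. All 96 kept their sign, but they were chosen for passing on these same arrays, so this is no separate support. Nor is a call kept with 1 array left out, which leaves its group a single array.

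The collagens Col8a1 and Col11a1 rose in both segments, with the larger estimate in the ascending aorta. Col8a1 encodes a short-chain collagen that smooth muscle makes in injured arteries. It stood at 5.16 and 5.10 on WT ascending arrays, 8.21 and 8.88 on KO ascending, 7.02 and 6.72 on WT descending, and 9.61 and 9.27 on KO descending. The rise was 10.7-fold in ascending and 5.94-fold in descending, and the interaction was 0.84 (SE 0.31, interval 0.15 to 1.54, adjusted p = 0.806). Col11a1, a minor fibrillar collagen, rose 3.49-fold and 2.33-fold, with an interaction of 0.58 (SE 0.16, adjusted p = 0.775). Both started lower in the ascending WT aorta. Ascending minus descending was -1.74 for Col8a1 (adjusted p = 0.00834) and -1.44 for Col11a1 (adjusted p = 0.00125) in WT, and -0.89 (adjusted p = 0.104) and -0.86 (adjusted p = 0.0113) in KO. Without KO ascending replicate 2 the interaction of Col8a1 was 0.51, and without KO ascending replicate 1 it was 1.18.

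Calls made in 1 segment and missed in the other were more frequent than shared ones, but they do not show a difference. There were 291 genes called in ascending and not in descending, of which 264 had the same sign in descending. A further 216 were called in descending and not in ascending, and 206 of these had the same sign in ascending. Among the 671 genes called in either segment, 37 had opposite signs. The interaction reached an unadjusted p under 0.05 in 137 of the 291 and 81 of the 216, against 12 of the 164 called in both. A gene called in only 1 segment was chosen for unequal changes, so these shares are given as a description.

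The genes with the firmest calls in ascending alone were Slfn4, Csta3, Itgbl1, Ccr2, Abi3bp and Hbegf, and all 6 calls held without each array in turn. Itgbl1, an integrin beta-like matrix protein, went from 7.82 and 8.09 in WT to 9.32 and 9.22 in KO in ascending, and from 9.30 and 9.32 to 9.88 and 9.68 in descending. Its WT level was lower in ascending by 1.36 (ascending minus descending -1.36, adjusted p = 0.00296), and KO ascending arrays stood at about the WT descending level. The interaction was 0.84 (SE 0.18, adjusted p = 0.651). Hbegf, a ligand of the EGF receptor, rose 2.25-fold in ascending, and its descending difference of 0.53 did not pass (adjusted p = 0.0725). Its interaction was 0.64 (SE 0.18, adjusted p = 0.775). Slfn4, a gene of myeloid cells, had an interaction of 1.30 (SE 0.26, adjusted p = 0.647).

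In descending alone the firmest calls were Bmp3, Sftpc, Igfbp1, Serpina1d, Mcm5 and Pi15. The calls of Bmp3 and Sftpc were kept under all alternatives, the others were lost without WT descending replicate 1, and that of Pi15 also without WT descending replicate 2. For Sftpc the WT descending arrays stood at 8.37 and 10.15, a spread that leaving out either removes from the fit. Pi15, a secreted protein of the CAP family, stood at 10.32 and 10.18 in WT against 9.75 and 9.68 in KO ascending, and 10.36 and 10.38 against 9.04 and 9.45 in KO descending. It fell by 1.13 log2 in descending (adjusted p = 0.0113), and its ascending difference of -0.53 did not pass (adjusted p = 0.0858). The interaction of 0.59 (SE 0.20) had an adjusted p of 0.802. Mcm5, a subunit of the replicative helicase, rose 2.43-fold in descending (adjusted p = 0.00795), with 0.66 log2 in ascending (adjusted p = 0.0559) and an interaction of -0.62 (SE 0.21, adjusted p = 0.801).

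The 12 genes of smallest p above 0 were Ccr2, Csta3, Ptgs2, Sftpc, Clec4d, Rsad2, Gdf2, Slpi, Gp9, Treml1, Gcsam and Elapor1. None passed adjustment (adjusted p 0.439 to 0.647), and 7 of the 12 belong to a list described later, 5 of them to lists of lung, neutrophil, platelet or monocyte markers. Ccr2, the receptor that draws monocytes out of the blood, stood at 5.42 and 5.22 on WT ascending arrays, 6.42 and 6.38 on KO ascending, 5.76 and 5.74 on WT descending, and 5.71 and 5.73 on KO descending. The KO ascending arrays stood above the other 6, and the WT ascending arrays below them. It rose 2.11-fold in ascending (adjusted p = 0.00494) and differed by -0.03 in descending, with an interaction of 1.11 (SE 0.15, interval 0.77 to 1.45, adjusted p = 0.439). Clec4d, a lectin receptor of neutrophils and monocytes, showed the same order, with 6.15 and 6.75 on KO ascending arrays against 5.04 to 5.88 on the other 6. Its interaction was 1.68 (SE 0.26, adjusted p = 0.469).

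Csta3, one of a cluster of stefin genes read in mouse neutrophils, had the second largest interaction of the 12. It stood at 5.05 and 4.01 on WT ascending arrays, 8.11 and 8.48 on KO ascending, 5.16 and 5.79 on WT descending, and 5.61 and 6.06 on KO descending. The KO ascending arrays stood above the other 6, the WT ascending arrays stood below them all, and the descending groups overlapped each other. The interaction was 3.40 (SE 0.48, interval 2.31 to 4.50, adjusted p = 0.439). The stefins of this cluster are near-identical copies whose probes may read each other's RNA, so their values are not independent. Slpi, an inhibitor of neutrophil elastase, was lower in the ascending than the descending aorta of WT by 1.27 (ascending minus descending -1.27, adjusted p = 0.00461). On KO arrays that difference was -0.21 (adjusted p = 0.648), and the interaction was 1.06 (SE 0.19, adjusted p = 0.647).

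Ptgs2, the inducible cyclooxygenase that makes prostaglandins, is the only one of the 24 genes leading in either direction that was called in both segments. It stood at 5.24 and 5.59 on WT ascending arrays, 8.39 and 8.33 on KO ascending, 4.87 and 4.93 on WT descending, and 6.32 and 5.78 on KO descending. KO lay above WT in each segment, and KO ascending lay above KO descending by 2.31 (adjusted p = 0.00159). It rose 7.71-fold in ascending (adjusted p = 0.000551) and 2.22-fold in descending (adjusted p = 0.0266), and the interaction was 1.80 (SE 0.26, interval 1.21 to 2.38, adjusted p = 0.439). Without KO descending replicate 1, which leaves that group with 1 array, the interaction was 2.06 (adjusted p = 0.0353). Its descending call was lost under 4 of 18 alternatives.

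Rsad2, an antiviral protein induced by interferon, stood at 6.75 and 6.86 on WT ascending arrays, 7.70 and 7.97 on KO ascending, 7.23 and 7.33 on WT descending, and 7.32 and 7.21 on KO descending. It rose 2.04-fold in ascending (adjusted p = 0.00891) and differed by -0.01 in descending, with an interaction of 1.04 (SE 0.17, adjusted p = 0.579). Gdf2, which encodes the circulating ligand BMP9, had an interaction of 0.79 (SE 0.13), with arrays at 4.72 to 5.44, not far above the dim limit. Gcsam and Elapor1 were near that limit as well, at 3.82 to 4.45 and 4.08 to 5.10, so their interactions of 0.79 and 1.01 rest on weak signals.

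**Figure D2:**
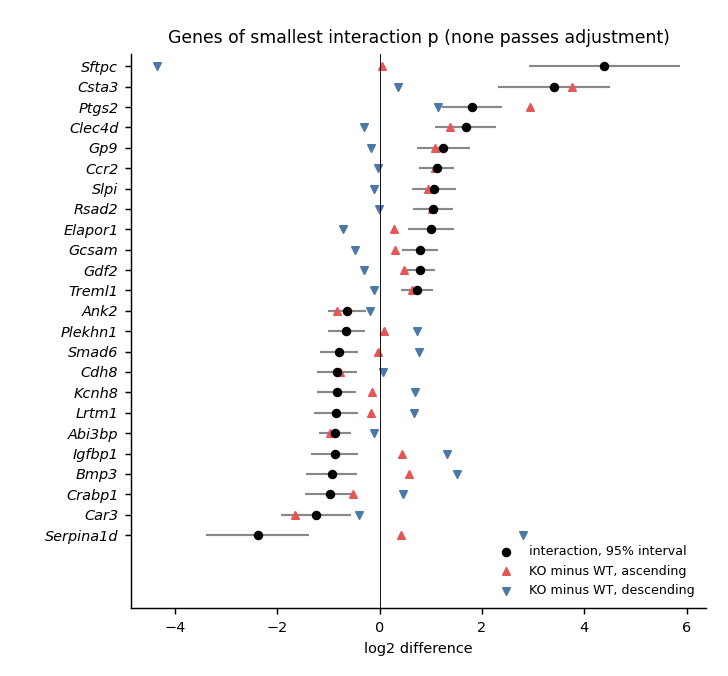
Interaction estimate (black point, log2) with its 95% interval (grey line) for the 12 genes of smallest p on each side of 0, beside KO minus WT in ascending (red triangle) and in descending (blue triangle). Intervals are for single genes and none of the 24 passes adjustment over all genes (adjusted p 0.439 to 0.759). For Sftpc and Serpina1d the descending difference is the larger one, and for Csta3 and Ccr2 the ascending.

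The 12 genes of smallest p below 0 were Abi3bp, Serpina1d, Kcnh8, Cdh8, Smad6, Lrtm1, Crabp1, Igfbp1, Bmp3, Car3, Plekhn1 and Ank2, with adjusted p of 0.469 to 0.759. Abi3bp, a matrix protein that holds back cell growth, stood at 10.16 and 10.05 on WT ascending arrays, 9.12 and 9.14 on KO ascending, 9.86 and 9.90 on WT descending, and 9.76 and 9.79 on KO descending. The KO ascending arrays stood below all others and the other groups spanned 9.76 to 10.16. It fell by 0.98 in ascending (adjusted p = 0.00496) and differed by -0.11 in descending (adjusted p = 0.608), with an interaction of -0.87 (SE 0.14, interval -1.18 to -0.56, adjusted p = 0.469). The estimate stayed between -0.92 and -0.82 under all 18 alternatives. The prior, the dim filter and the 1.2-fold test change the test and not the estimate. Abi3bp was chosen on these same arrays, so the narrow range is no separate support. Cdh8, a cadherin, and Ank2, an adaptor between membrane proteins and the cytoskeleton, also fell in ascending (adjusted p = 0.0197 and 0.0131), with interactions of -0.84 and -0.64.

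Smad6 and Bmp3 belong to bone morphogenetic protein (BMP) signalling. Smad6, which blocks the receptors' signal, stood at 8.36 and 8.35 on WT ascending arrays, 8.39 and 8.25 on KO ascending, 7.46 and 7.71 on WT descending, and 8.33 and 8.37 on KO descending. Only the WT descending arrays stood apart, below the rest. In WT, ascending was above descending by 0.77 (adjusted p = 0.0187), and in KO the difference was -0.03 (adjusted p = 0.962). It rose 1.70-fold in descending (adjusted p = 0.0225), a call lost without any 1 of the 4 descending arrays, and the interaction was -0.80 (SE 0.16, interval -1.17 to -0.42, adjusted p = 0.651). Bmp3, a member of the family that opposes bone-forming ligands, went from 7.46 and 7.27 to 7.99 and 7.90 in ascending and from 7.17 and 6.88 to 8.73 and 8.37 in descending. KO lay above WT in both segments, 2.87-fold in descending (adjusted p = 0.00562) and 0.58 log2 in ascending (adjusted p = 0.0879), with an interaction of -0.94 (SE 0.22, adjusted p = 0.687).

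Igfbp1, which binds insulin-like growth factors, rose 2.50-fold in descending (adjusted p = 0.00613), with arrays at 5.48 and 5.50 in WT against 6.73 and 6.88 in KO. In ascending it stood at 5.54 and 5.17 against 5.89 and 5.70, and the interaction was -0.88 (SE 0.20). Igfbp1 is made chiefly by liver, whose markers were also highest on the KO descending arrays, and their part in its value was not tested. Crabp1, which binds retinoic acid, did not pass in either segment and had differences of opposite sign, -0.52 and 0.45, with an interaction of -0.97 (SE 0.22, adjusted p = 0.662). Kcnh8, Lrtm1 and Plekhn1 rose in descending (adjusted p 0.0229 to 0.046), had ascending differences between -0.18 and 0.08, and read 4.01 to 5.61 on all arrays.

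**Figure D3:**
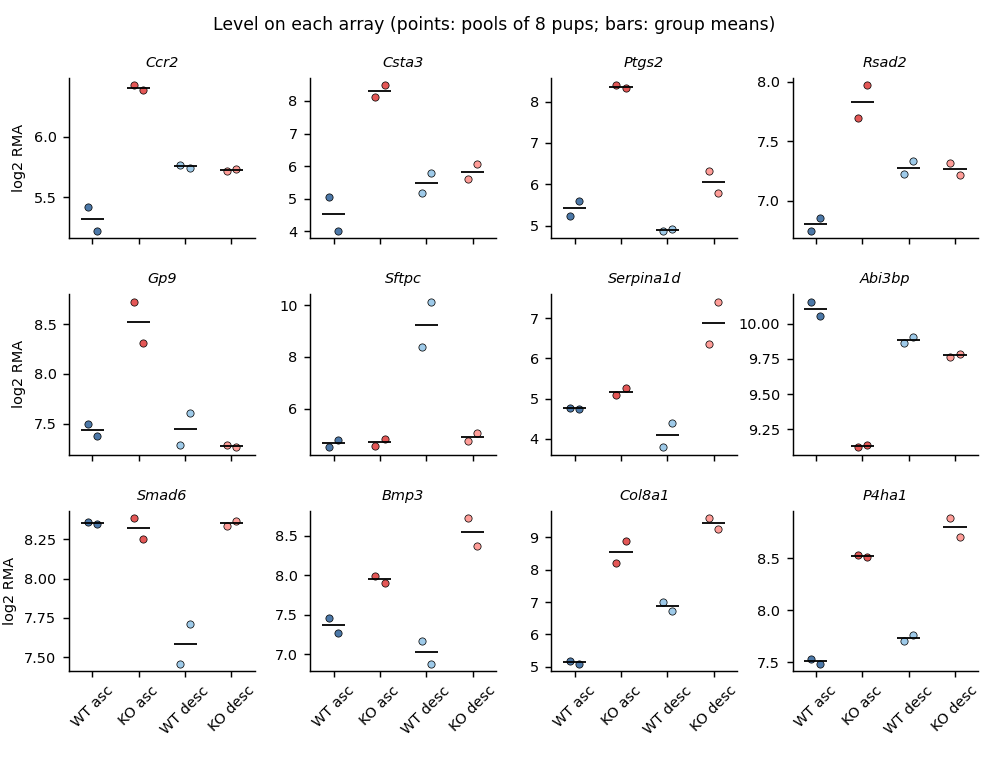
Log2 level on each array (points, 1 pool of 8 pups each) with the group mean (bar) for 10 of the genes with the smallest interaction p and, as genes called in both segments, Col8a1 and P4ha1. Each panel has its own vertical axis, which does not start at 0. KO ascending stands apart in Ccr2, Csta3, Ptgs2, Rsad2, Gp9 and Abi3bp, WT descending in Sftpc and Smad6, and KO descending in Serpina1d.

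Lung genes stood higher on WT than on KO descending arrays. Sftpc, surfactant protein C of the alveolar type II cell, stood at 8.37 and 10.15 on WT descending arrays and at 4.50 to 5.07 on the other 6. It fell by 4.35 in descending (adjusted p = 0.00577) and differed by 0.04 in ascending (adjusted p = 0.972), and the interaction of 4.39 (SE 0.65, interval 2.91 to 5.87, adjusted p = 0.439) is a 21-fold difference. The WT descending arrays differed widely from each other. With either of them left out the group has 1 array and the test rests on the spread of the other groups, so the adjusted p of 0.00168 without replicate 1 (estimate 5.28) and of 0.0325 without replicate 2 does not support the interaction. Nkx2-1, the transcription factor of lung and thyroid epithelium, was at 4.84 and 4.83 on WT descending arrays against 3.99 and 4.12 on KO descending, near the dim limit, and fell by 0.78 (adjusted p = 0.0161). Sftpa1 stood at 5.16 and 6.06 on WT descending arrays against 4.49 and 4.52, with an interaction of 1.40 (SE 0.36, adjusted p = 0.775), and Napsa had 0.95 (SE 0.26, adjusted p = 0.775).

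Of the 15 lung genes tested, 13 had an interaction above 0, against 50.5% of all genes, with a median of 0.51 against 0.003 over all genes. None passed the interaction, and in the descending aorta 2 fell and 0 rose, against 0.823% and 1.46% of all genes. The mean of the list was 6.45 and 6.67 on WT descending arrays, 5.42 and 5.48 on KO descending, 5.39 and 6.09 on WT ascending and 5.36 and 5.39 on KO ascending. WT ascending replicate 2, at 6.09, was the other array with a raised lung signal, and without it the list median was 0.67. Lamp3 and Slc34a2, also markers of type II cells, were dim and not tested. The part of carried-over lung in the interaction of other genes was not tested. In these bulk samples fewer cells of a type and less RNA per cell cannot be told apart.

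Genes of liver and plasma proteins lay on the other side of 0. Serpina1d, a mouse alpha-1-antitrypsin, stood at 4.77 and 4.73 on WT ascending arrays, 5.09 and 5.25 on KO ascending, 3.79 and 4.38 on WT descending, and 6.36 and 7.42 on KO descending. KO descending stood above the other 6 arrays. It rose 6.99-fold in descending (adjusted p = 0.00703), and the interaction was -2.39 (SE 0.44, interval -3.39 to -1.38, adjusted p = 0.647). Afp, the fetal counterpart of albumin, and Fgb, a fibrinogen chain, stood at 7.40 and 8.80, and 7.53 and 8.68, on KO descending arrays, against 5.09 to 5.89 in WT descending. Their interactions were -2.20 (SE 0.59) and -1.64 (SE 0.47), both with an adjusted p of 0.775. Ahsg, a plasma glycoprotein, had -1.92 (SE 0.52), but here the WT descending arrays stood apart, at 7.08 and 6.46. Its KO descending arrays read 8.17 and 9.49, and the ascending arrays 8.75 to 8.98. Without KO descending replicate 2 the interactions were -1.86 for Serpina1d, -1.51 for Afp, -1.07 for Fgb and -1.26 for Ahsg. Without that array the descending calls of Afp (adjusted p = 0.0585) and Ahsg (adjusted p = 0.0599) were lost.

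Of the 20 liver genes tested, 19 had an interaction below 0, with a list median of -1.06. In descending 7 rose and 0 fell, against 1.46% and 0.823% of all genes, and in ascending 0 passed. KO descending replicate 2 was the highest of the 8 arrays for 18 of the 20, with a list mean of 7.25 against 6.17 on KO descending replicate 1, 5.16 to 5.35 on WT descending and 5.57 to 5.95 on the 4 ascending arrays. WT descending replicate 2 was the lowest array for 13 of the 20 genes and WT descending replicate 1 for 4. Without KO descending replicate 2 the median was -0.55, and without KO descending replicate 1, which leaves the higher array alone, it was -1.72. In the latter case 11 genes passed the interaction at an adjusted p of 0.0353 to 0.0435. They were the hepatic or plasma protein genes Ambp, Apoa2, Fabp1, Fgg, Plg, Pzp, Serpina1d, Serpina1e and Ttr, with the platelet chemokine gene Ppbp and Ptgs2, and 8 of these names, like that of Cxcl15, were chosen after their values were seen. Kng1 was dim, and Trf, Gc and C3 had no probe set of their own. The part of carried-over liver in other genes was not tested.

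**Figure D4:**
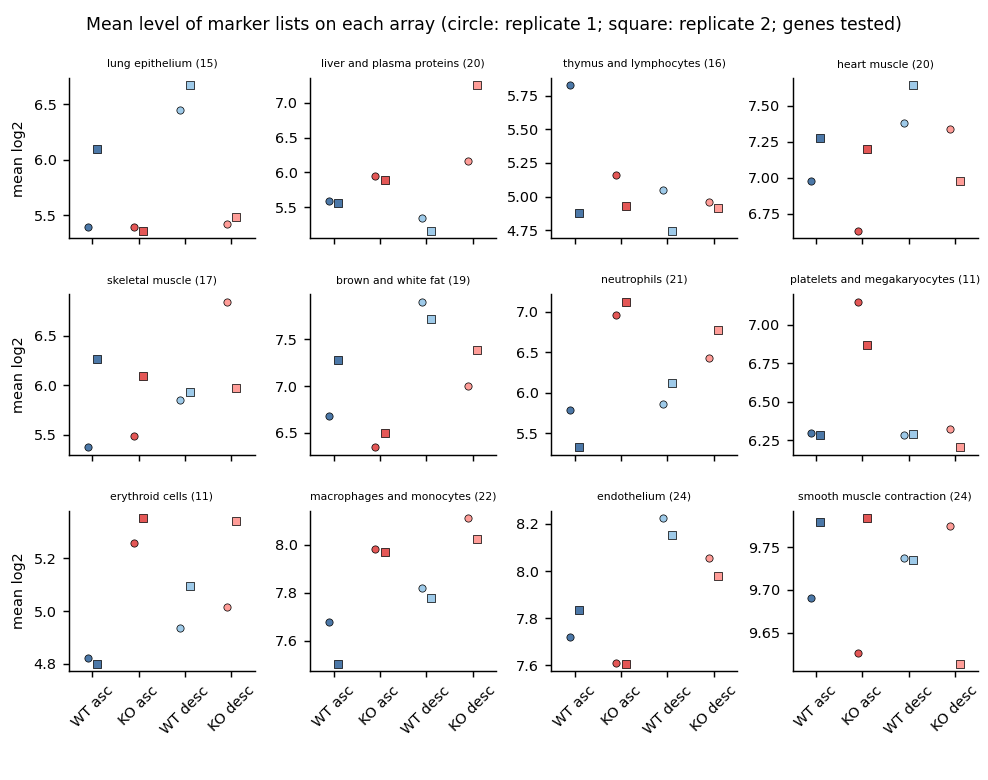
Mean log2 level of the tested members of 12 marker lists on each array (circle, replicate 1; square, replicate 2), with the number of members in brackets and a separate vertical axis for each panel. Lung genes are raised on both WT descending arrays and WT ascending replicate 2, and liver genes on both KO descending arrays, most on replicate 2. Thymus genes are raised on WT ascending replicate 1, and platelet genes on both KO ascending arrays.

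Neutrophil genes were highest on KO ascending arrays. Of 21 tested, 17 had an interaction above 0, with a median of 0.62, and 11 rose in ascending (1.54% of all genes did) while 0 passed in descending. Of these 11 genes 5 are the near-identical stefins Csta3, Stfa1, Stfa3, Stfa2l1 and Cstdc4, which cannot be counted as independent. Mmp8, the collagenase of neutrophil granules, stood at a mean of 4.93 on WT ascending arrays (SD 0.10, n = 2), at 6.49 and 7.35 on KO ascending, 5.26 and 5.68 on WT descending, and 5.59 and 5.86 on KO descending. Cxcr2, the receptor for neutrophil chemokines, was at 6.74 and 7.40 on KO ascending and 5.48 to 6.09 on the other 6. Their interactions were 1.74 (SE 0.37, adjusted p = 0.651) and 1.51 (SE 0.34, adjusted p = 0.662). Retnlg, a resistin-like protein of granulocytes, had 1.75 (SE 0.44, adjusted p = 0.761), with WT arrays at 3.31 to 4.56, around the dim limit.

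The mean of the neutrophil list was 6.96 and 7.13 on KO ascending arrays, 6.43 and 6.77 on KO descending, 5.86 and 6.13 on WT descending and 5.79 and 5.33 on WT ascending. So the KO mean lay above WT in both segments, and WT ascending was the lowest group. The median over members of KO minus WT was 1.28 log2 in ascending and 0.45 in descending. WT ascending replicate 2 was the lowest of the 8 arrays for 14 of the 21 genes. With that array left out the list median was 0.58, and over the 8 arrays left out in turn it ranged from 0.50 to 1.08, the highest without KO ascending replicate 1. Over the members brighter than the median gene it was 1.49. Ly6g and Stfa2 were dim.

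Platelet and megakaryocyte genes gave the highest of the 38 list medians, 0.73, with 10 of 11 above 0, and 6 rose in ascending (1.54% of all genes did) while 0 passed in descending. Gp9, a chain of the platelet receptor for von Willebrand factor, stood at 7.50 and 7.38 on WT ascending arrays, 8.73 and 8.31 on KO ascending, 7.28 and 7.61 on WT descending, and 7.29 and 7.26 on KO descending. Only KO ascending stood apart, and the interaction was 1.25 (SE 0.23, interval 0.73 to 1.76, adjusted p = 0.647). Ppbp, a chemokine stored in platelets, was at 9.80 and 9.48 on KO ascending and 7.72 to 8.59 on the other 6, with 1.74 (SE 0.36, adjusted p = 0.651). Treml1 and Tubb1, a receptor and a tubulin of platelets, had interactions of 0.73 (SE 0.14) and 0.93 (SE 0.21). The platelet list mean was 7.15 and 6.87 on KO ascending arrays and 6.21 to 6.32 on the other 6, so here KO descending lay with WT. The median stayed between 0.66 and 0.92 with each array left out.

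Red cell genes gave a smaller value. Their list median was 0.20, and 8 of 11 lay above 0. KO descending replicate 2 was the highest array for 7 of the 11, against 1 and 3 for KO ascending replicates 1 and 2. The list mean was 5.26 and 5.35 on KO ascending, 5.01 and 5.34 on KO descending and 4.80 to 5.09 on WT arrays. In ascending 1 gene rose (1.54% of all genes did), Tspo2. It stood at 4.92 and 5.25 on KO ascending arrays against 3.56 to 4.50 on the other 6. Those 6 lay around the dim limit of 4.11, so its values rest on a weak signal. Tspo2, a cholesterol-binding protein of erythroblasts, had an interaction of 1.10 (SE 0.28, adjusted p = 0.775), and Slc4a1, the red cell anion exchanger, had 0.92 (SE 0.30). Without KO descending replicate 1 the list median was 0.01, without KO descending replicate 2 it was 0.42, and over the members brighter than the median gene it was 1.08. The adult globin genes had no probe set of their own and were not used. Whether the blood cell signal came from blood in the lumen, clot or cells within the wall was not tested.

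Macrophage genes lay on both sides of 0. Of 22 macrophage and monocyte genes, 10 had an interaction above 0 and 12 below, with a median of -0.02, and 4 rose in ascending and 3 in descending, against 1.54% and 1.46% of all genes. The members with the smallest p were Ccr2, Ly6c2 and Itgam, surface proteins of blood monocytes, with interactions of 1.11, 1.05 (SE 0.30) and 0.78 (SE 0.28), and Folr2, of resident macrophages, with -0.34 (SE 0.14). None passed (adjusted p 0.439 to 0.869). Mast cell genes had a median of 0.17, with 7 of 7 above 0, and 0 of them changed within a segment. The sign of that median depended on the array: it was -0.16 without KO ascending replicate 2 and -0.14 without WT ascending replicate 1.

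For the other neighbouring tissues the list median depended on single arrays. Thymus and lymphocyte genes had a median of -0.31, with 10 of 16 below 0. WT ascending replicate 1 was the highest array for 12 of the 16, with a list mean of 5.83 against 4.74 to 5.16 on the other 7, and without it the median was 0.14, the highest of a range from -0.58. Cd8b1, a chain of the T cell coreceptor CD8, stood at 7.54 on that array and at no more than 6.02 on the others. Skeletal muscle genes had a median of -0.23, with 13 of 17 below 0. KO descending replicate 1 was highest for 13 of the 17, with a mean of 6.84 against 5.38 to 6.27, and without it the median was 0.01, the highest of a range from -0.66. Mylpf, a fast muscle myosin light chain, stood at 8.28 on that array and 4.72 to 7.28 on the others.

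Of 20 heart muscle genes 13 had an interaction above 0 and 7 below, with a median of 0.24, which ranged from -0.05 without KO ascending replicate 2 to 0.62 without KO ascending replicate 1. Tecrl, an enzyme-like protein of heart muscle, fell in ascending, from 7.01 and 6.23 to 4.91 and 4.87 (adjusted p = 0.0255), with an interaction of -1.13 (SE 0.42, adjusted p = 0.815). Tnnt2 and Tnni1, troponins of the contractile apparatus, lay on the other side, at 0.68 (SE 0.28) and 0.62 (SE 0.25), and Myh7, a myosin heavy chain, had -0.53. Of 19 fat genes 4 fell in ascending and 2 in descending, against 1.19% and 0.823% of all genes. The interaction lay above 0 in 11 and below in 8, with a median interaction of 0.08 that ranged from -0.24 to 0.32 as arrays were left out, the lowest without WT ascending replicate 1. Car3, a carbonic anhydrase of fat and muscle, was at 11.21 and 11.70 in WT against 9.53 and 10.08 in KO in ascending, and at 12.08 and 12.10 against 11.53 and 11.82 in descending. It fell by 1.65 in ascending (adjusted p = 0.0113), and the interaction was -1.24 (SE 0.30, adjusted p = 0.726). Pparg, the master regulator of fat cells, had -0.62 (SE 0.32). Plin5, a lipid droplet protein, and Lpl, the lipase of fat capillaries, lay above 0, at 0.56 and 0.47 (SE 0.21 for each).

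The remaining tissue lists had medians of 0.20 for cartilage, 0.15 for Schwann cells, 0.10 for mesothelium, 0.07 for oesophagus and airway epithelium and 0.01 for sympathetic neurons, and only that of cartilage kept its sign with each array left out. Sympathetic neuron genes stood at 6.62 to 7.12 on descending and 5.65 to 5.76 on ascending arrays in either genotype. Hapln1, which links proteoglycan to hyaluronan in cartilage and heart valves, stood at 8.12 and 7.60 in WT descending, at a mean of 6.69 (SD 0.44, n = 2) in KO descending and at 6.96 to 7.09 in ascending. Hapln1 fell by 1.17 in descending (adjusted p = 0.0388), and the interaction was 1.12 (SE 0.31, adjusted p = 0.775). Krt14, a keratin of basal epithelium, rose in ascending from 5.56 and 5.37 to 6.30 and 6.44 (adjusted p = 0.00952). In descending it stood at 6.25 and 6.34 in WT and at 6.45 and 6.48 in KO, so only WT ascending stood apart. The interaction of Krt14 was 0.74 (SE 0.16, adjusted p = 0.651).

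The vessel wall itself gave list medians near 0. Smooth muscle contraction genes had -0.03 over 24, endothelial genes 0.01 over 24, and fibroblast and adventitial genes -0.10 over 17, with 0 interaction calls in each. Of the 38 list medians, 18 kept their sign under every alternative, and those of smooth muscle and endothelium did not. Desmin (Des) had the largest value of the contractile genes, 0.79 (SE 0.38, adjusted p = 0.895), with KO ascending arrays at 7.06 and 7.87, and Myocd, the coactivator that drives contractile genes, had -0.33 (SE 0.15). Among endothelial genes the values ran from -0.31 (Cdh5, the junctional cadherin) to 0.37 (Emcn, a surface sialomucin). Tcf21, a transcription factor of adventitial cells, stood at 7.72 to 7.90 in ascending and fell from 5.73 and 5.64 to 5.04 and 5.22 in descending (adjusted p = 0.0465), with an interaction of 0.65 (SE 0.16, adjusted p = 0.723). Pi16, a marker of adventitial fibroblasts, rose in descending (adjusted p = 0.0479) and had -0.44 (SE 0.15). The calls of Tcf21 and Pi16 were each kept under only 5 of 18 alternatives.

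Matrix genes include the substrates and partners of the missing enzyme, and their lists had medians close to 0. Elastic fibre genes had a median of -0.11, fibrillar collagens 0.12, other collagens -0.01, collagen processing genes -0.03, matricellular proteins -0.05 and matrix proteases with their inhibitors 0.04, and only the medians of elastic fibre genes and fibrillar collagens kept their sign throughout. Fbn2, a fibrillin of the developing vessel, stood at 9.34 and 9.20 on WT ascending arrays, 9.10 and 9.36 on KO ascending, 8.71 and 8.86 on WT descending, and 9.53 and 9.33 on KO descending. It rose in descending (adjusted p = 0.0479, kept under 5 of 18 alternatives) and had an interaction of -0.69 (SE 0.19, adjusted p = 0.775). Timp4, which restrains matrix-degrading proteases, was down in KO of both segments, from 9.31 and 9.42 to 8.36 and 8.27 and from 9.20 and 8.98 to 7.71 and 7.50, with an interaction of 0.43 (SE 0.17, adjusted p = 0.869). Tgm2, a transglutaminase that crosslinks proteins by another bond, rose in ascending (adjusted p = 0.0265) and had 0.71 (SE 0.20, adjusted p = 0.775). Thbs1, a matricellular protein, rose in both, with 0.45 (SE 0.24).

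Immediate early genes, which answer stimuli within minutes, and chemokines mostly had estimates above 0. Of 26 immediate early genes, 23 had an interaction above 0, with a median of 0.30. In this list 10 rose in ascending and 2 in descending, against 1.54% and 1.46% of all genes. KO ascending replicate 1 was the highest array for 18 of the 26, and KO ascending replicate 2 for 4. The list means of these arrays were 7.73 and 7.59, against 6.81 to 7.35 on the others. Egr2, a zinc finger factor of this class, stood at 5.91 and 5.58 on WT ascending arrays, 6.70 and 7.08 on KO ascending, 5.86 and 5.75 on WT descending, and 6.26 and 6.18 on KO descending. KO lay above WT in both segments. The interaction of Egr2 was 0.74 (SE 0.22, adjusted p = 0.775), while Ier3, Junb and Dusp1 had 0.56, 0.58 and 0.52. Of 25 chemokine and cytokine genes, 20 lay above 0, with a median of 0.30, and 9 rose in ascending and 2 in descending, against the same shares of all genes. Il1b and Cxcl1, an inflammatory cytokine and a neutrophil chemokine, had 1.17 (SE 0.39) and 0.94 (SE 0.33), with KO ascending arrays at 6.31 and 5.58, and 7.14 and 6.37. With each array left out the median ranged from 0.21 (without KO ascending replicate 1) to 0.49 (without KO descending replicate 2) for immediate early genes and from 0.20 (without KO ascending replicate 2) to 0.42 for chemokines, and 0 members passed the interaction over all 8 arrays. Neutrophil and platelet genes stood highest on the same KO ascending arrays, and their part in these values was not tested.

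Cxcl13, which attracts B cells, had one of the smaller errors among the chemokines. It stood at 8.69 and 8.73 on WT ascending arrays, 9.24 and 9.19 on KO ascending, 10.33 and 10.27 on WT descending, and 10.28 and 10.12 on KO descending. The segment difference was larger than that between genotypes, and the interaction was 0.61 (SE 0.14, adjusted p = 0.699). Interferon response genes had a median of 0.14 with 13 of 17 above 0, and Isg15, a ubiquitin-like protein of that response, had 0.91 (SE 0.26, adjusted p = 0.775). Hspa1a, an inducible heat shock protein, rose in ascending from 6.26 and 6.49 to 7.30 and 7.24 (adjusted p = 0.0159), stood at 6.76 to 7.05 in descending in either genotype, and had 0.93 (SE 0.18, adjusted p = 0.647). The list of stress genes it belongs to had a median of 0.06.

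Cell cycle genes mostly had estimates below 0. Of 25, 24 had an interaction below 0, with a median of -0.22 that stayed between -0.34 and -0.15 as arrays were left out. In ascending 1 rose, near the 1.54% of all genes, and in descending 4 did, against 1.46%. The values were small: only Mcm5 reached an unadjusted p under 0.05, and Mki67 and Ccna2, marks of dividing cells, had -0.32 (SE 0.16) and -0.34 (SE 0.17). Mcm5 stood at 6.20 and 6.19 on WT ascending arrays, 6.72 and 6.99 on KO ascending, 5.77 and 6.07 on WT descending, and 7.32 and 7.09 on KO descending. KO descending replicate 1 was the highest array for 16 of the 25 genes, and without it the median was -0.17.

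Sterol and fatty acid synthesis genes were called in similar numbers in both segments. Of 21 genes, 10 rose in ascending and 11 in descending, against 1.54% and 1.46% of all genes, with a median difference of 0.63 in each. The interaction lay below 0 in 17 of the 21, with a median of -0.12. Msmo1, a sterol oxidase, went from 5.89 and 5.71 to 6.71 and 7.17 in ascending and from 5.71 and 5.36 to 7.02 and 7.14 in descending, with an interaction of -0.40 (SE 0.25, adjusted p = 0.913). Hypoxia and glycolysis genes had a median of 0.02 and unfolded protein and heat stress genes 0.06. Oxidative phosphorylation genes had 19 of 22 above 0 but a median of only 0.13, with 0 called in either segment. Their list mean was 9.32 and 9.22 on WT descending arrays, above the 8.90 to 9.06 of the other 6.

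Signalling and position genes had list medians close to 0. Those of TGF-beta and BMP signalling had a median of -0.05 over 31, and besides Smad6 the smallest p belonged to Tgfb2 and Bmp6, ligands of these pathways, with -0.37 (SE 0.15) and -0.40 (SE 0.16). Hox genes had a median of 0.04 and outflow tract and neural crest factors 0.05, both with a sign that changed under some alternatives, while outflow tract factors averaged 6.50 to 6.54 on ascending and 6.27 to 6.31 on descending arrays. Dlx5, a homeobox factor of the neural crest, stood at 8.02 and 8.10 in WT ascending and 7.14 and 7.46 in KO ascending, against 6.63 to 6.85 in descending. It fell by 0.76 in ascending (adjusted p = 0.0287), and the interaction was -0.74 (SE 0.19, adjusted p = 0.775). Hoxc6, a gene of the trunk, rose in descending from 6.65 and 6.48 to 7.35 and 7.66 (adjusted p = 0.0274), with -0.36 (SE 0.21).

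Of 18 ion channel and vessel tone genes 5 fell in ascending and 6 in descending, against 1.19% and 0.823% of all genes, with a median interaction of -0.11. Kcna5, a voltage-gated potassium channel, stood at 5.85 and 6.20 on WT ascending arrays, 5.74 and 5.71 on KO ascending, 6.20 and 6.25 on WT descending, and 5.35 and 5.35 on KO descending. It fell by 0.88 in descending (adjusted p = 0.0187), and the interaction was 0.58 (SE 0.18, adjusted p = 0.775). Trpm3, a cation channel, and Kcnn2, a calcium-activated potassium channel, fell in both segments and had interactions of -0.56 (SE 0.19) and -0.46 (SE 0.23), with the larger fall in ascending.

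**Figure D5:**
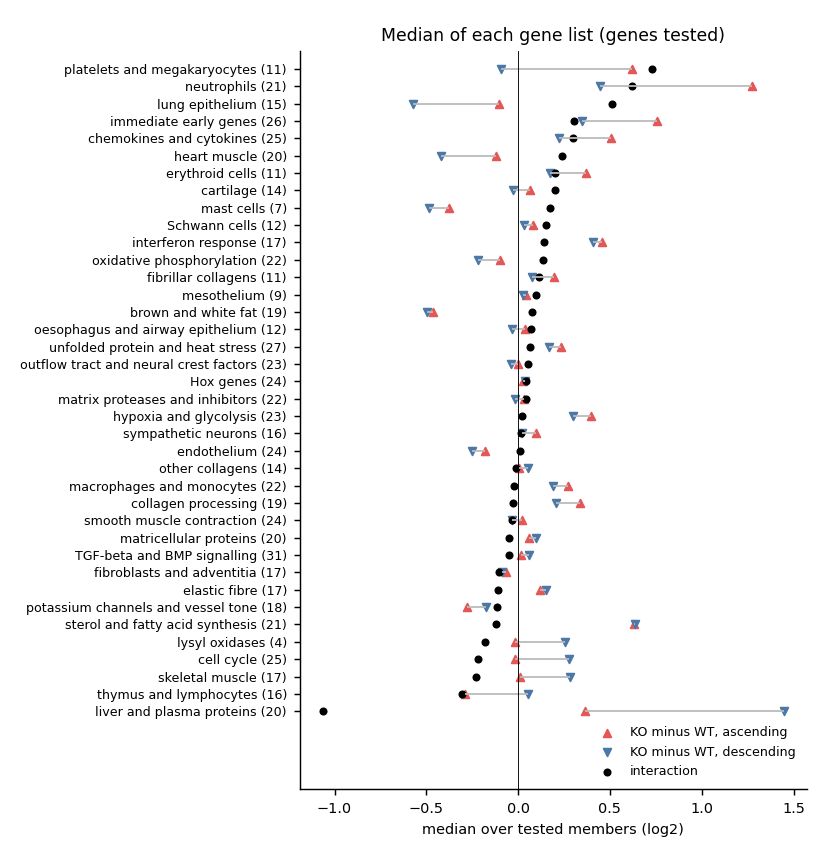
Median over the tested members (number in brackets) of each of the 38 gene lists, for KO minus WT in ascending (red triangle) and in descending (blue triangle) and for the interaction (black point), in log2. Platelet, neutrophil and lung genes lie farthest above 0 and liver genes farthest below, while smooth muscle, endothelial and most matrix lists lie near 0.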

How the data were processed

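The deposited values are log2 expression of 41345 probe sets on Affymetrix gene arrays, which the authors made with RMA in Affymetrix Expression Console, per the submitters' processing notes. RMA subtracts background, equalises the distributions of the arrays and summarises probes, so a shift of all RNA in one group would not be seen. Per the labels, like genotypes were pooled in groups of 8 pups before RNA was amplified and labelled with biotin.

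The platform annotation gave 1 symbol to 23525 probe sets, several to 1810 and none to 16010. For each of 22184 genes the single-symbol probe set with the highest mean was kept, and 5546 genes under the 25th percentile were left out. All 8 arrays were fitted with limma 3.58.1 in R 4.3.3 (lmFit, contrasts, eBayes, 4 residual degrees of freedom), with Benjamini-Hochberg adjustment over the 16638 genes and a threshold of 0.05, after a check on simulated data. Probe sets with several symbols or none were fitted separately: 0 of 10937 above the limit passed, with 488 at an unadjusted p under 0.05.

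The members, the 38 gene lists (788 names, 696 tested) and the tests were chosen with earlier results of these data known. Genes were named by rule: the Lox family, 12 of smallest interaction p on each side, up to 4 per list by interaction p, 10 called in both segments and 6 called in each segment alone. Predicted genes, clones and small RNAs were skipped. Alternatives changed the filter on dim genes, the array scaling and weights, the prior, the probe set rule, the replicate block, testing for changes beyond 1.2-fold, asking calls for at least 1.5-fold, the arrays fitted and each array in turn. Replicate numbers were not used to pair the arrays in the main fit. Of 6 correlations of replicate differences between groups, 2 were over 0.1, the highest 0.126. They cannot show whether both segments of a replicate number came from the same pups, which the sample titles do not say.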

Additional observations from a re-analysis of the deposited data

How the results depend on the processing

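The interaction count stayed at 0 under every other setting except a trended robust prior, which gave 1, and it ranged from 0 to 11 with each array left out. Calls within a segment moved more. The ascending count of 455 became 303 when dim genes were kept, 756 when the dim limit was raised to the 50th percentile, 1014 with the trended robust prior, 65 when tested against 1.2-fold and 100 when only the 4 arrays compared were fitted. The descending count of 380 became 155, 717, 919, 48 and 105 under the same settings. With each array left out the ascending count ranged from 64 to 353 and the descending count from 19 to 226. With the replicate number as a block, the counts were 0 for the interaction, 384 for ascending and 200 for descending. Whether that number pairs pools across segments is not given by the titles. The cause of these shifts was not tested. Of 173 interaction values of named genes 164 kept their sign under every alternative, as did all 24 leading genes. The 24 were chosen by smallest interaction p on these same arrays, so their kept sign is no separate support. With 2 pools per group, an interaction under about 1.33-fold lay within the median gene's interval. That interval is for a single gene without adjustment, and far larger estimates, such as 21-fold for Sftpc, did not pass the adjusted test.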
